A study of Mus musculus with 16 samples.

Results

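The transcripts of the mitochondrial genome were described in brown adipose tissue (BAT) of mice lacking Gdf15 in thermogenic adipocytes. All genes whose symbol starts with mt- were taken after transcript values were summed per gene symbol, which gave 37 of 49066 genes. These were 13 mRNAs, 2 rRNAs and 22 tRNAs. The tissue came from 18-week-old C57BL6/J mice that had been fed a high-fat diet (HFD, 60% of energy from fat) for 12 weeks from 6 weeks of age. Male and female mice of 2 genotypes were sampled, with 4 libraries in each of the 4 groups. KO mice carried Gdf15 fl/fl alleles together with a transgene that drives Cre recombinase from the Ucp1 promoter, Tg(Ucp1-cre)1Evdr. WT controls were littermates with the same Gdf15 fl/fl alleles and without Cre. Cre is active in thermogenic adipocytes, so other cells of BAT kept Gdf15 in both genotypes. Some mice of the cohort had been in metabolic chambers at thermoneutrality, and the labels do not say which.

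Mitochondrial DNA is a small circular genome that is transcribed from both strands into long precursor RNAs. tRNAs lie between most of the other genes, and their excision releases the rRNAs and most of the mRNAs. Most of these RNAs are then adenylated in the mitochondrial matrix. The mRNAs encode core subunits of respiratory chain complexes I, III and IV and of the ATP synthase (complex V), and all remaining subunits are encoded in the nucleus. Brown adipocytes are packed with mitochondria because they burn fuel to make heat through UCP1.

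Values were TPM, a measure of transcript abundance that is divided by transcript length and sums to 1000000 in every library, so a rise in one class of RNA lowers all others. Gdf15 itself was low, with 1.60 ± 1.55 TPM in the 4 male WT libraries (mean ± SD) against 0.175 ± 0.103 TPM in the male KO libraries, and the ranges did not overlap. It was 0.208 ± 0.116 TPM in female WT and 0.0198 ± 0.0397 TPM in female KO libraries, whose ranges overlapped. Ucp1 ranged from 2353 to 4423 TPM over the 16 libraries, and all 10 brown adipocyte markers were above 0 in every library. One library stood apart. In female WT replicate 4, transcripts that could not be named took 17.7% of TPM, against 0.333% to 0.48% elsewhere, and 1 such transcript alone took 16.5%. The gene listed as Mir6236 took 7.09% there and at most 0.0889% in the other 15 libraries. Results for females are therefore given with and without this library where stated, and otherwise include it.

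Several mitochondrial genes have near-identical copies in the nuclear genome, pieces of mitochondrial DNA that were inserted into a chromosome. The copies carry their own gene symbols, so reads from a shared stretch can be divided between a mitochondrial gene and its copy. With 90% of all 31-base words of a transcript found in 1 mitochondrial gene as the criterion, 7 nuclear copies were found, all annotated as pseudogenes on chromosome 1. They were Gm29216 (copy of mt-Co1), Gm28661 (mt-Co2), Gm28437 (mt-Co3), Gm10925 (mt-Atp6), Gm28438 (mt-Nd3), Gm28439 (mt-Nd4) and Gm10222 (mt-Nd4l). Gm28661, Gm28437, Gm10925, Gm28439 and Gm10222 did not differ from the mitochondrial gene at any base of their length. Gm28438 matched mt-Nd3 over 345 bases with 1 difference, T3C, counted from the first base of mt-Nd3. Gm29216 matched the last 492 bases of mt-Co1 with 6 differences, T1056A, C1057T, A1059G, A1060G, C1062A and A1066T, all within its first 13 bases. The first 60 bases of both copies are shown beside the mitochondrial gene, since reads from shared bases could be assigned to either. In GRCm38, mt-Nd3 lies at chrM:9459-9806 and mt-Co1 at chrM:5328-6872, both on the plus strand, and the stretch of mt-Co1 shown is its bases 1054 to 1113. Differing bases are in capitals, all sequences run 5′ to 3′, and those of the copies come from GENCODE M21 (GRCm38), whose transcript version differs from the one quantified.
mt-Nd3: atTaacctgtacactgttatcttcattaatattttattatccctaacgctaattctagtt
Gm28438: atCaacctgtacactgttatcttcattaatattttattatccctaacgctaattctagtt
mt-Co1: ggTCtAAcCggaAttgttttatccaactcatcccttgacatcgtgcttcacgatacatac
Gm29216: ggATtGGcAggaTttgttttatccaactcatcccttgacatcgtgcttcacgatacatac

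Mitochondrial transcripts made up between 34.5% and 59.8% of the TPM of a library. In male WT replicates (numbers 1 to 4, in that order here and in all lists of values) the share was 59.8%, 43.9%, 53.3% and 49.2% (51.5% ± 6.7, SD, n = 4), and in male KO it was 48.3%, 44.0%, 48.8% and 51.5% (48.1% ± 3.1). In female WT it was 47.3%, 59.1%, 52.0% and 34.5% (48.2% ± 10.3), and in female KO 41.4%, 49.5%, 52.8% and 45.2% (47.2% ± 5.0). The ranges of KO and WT overlapped in both sexes, and the spread within each WT group was larger than either difference between genotypes. KO minus WT was -3.39 percentage points in males and -0.994 in females, and the female value became -5.56 without female WT replicate 4. Of mice that share the first part of the library name, KO minus WT was -3.13 points in males (prefix 9, 3 KO and 2 WT). In females it was -5.86 points under prefix 10 (1 mouse of each genotype) and 4.28 points under prefix 8b (1 KO and 3 WT). What the prefix stands for was not given.

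**Figure D1:**
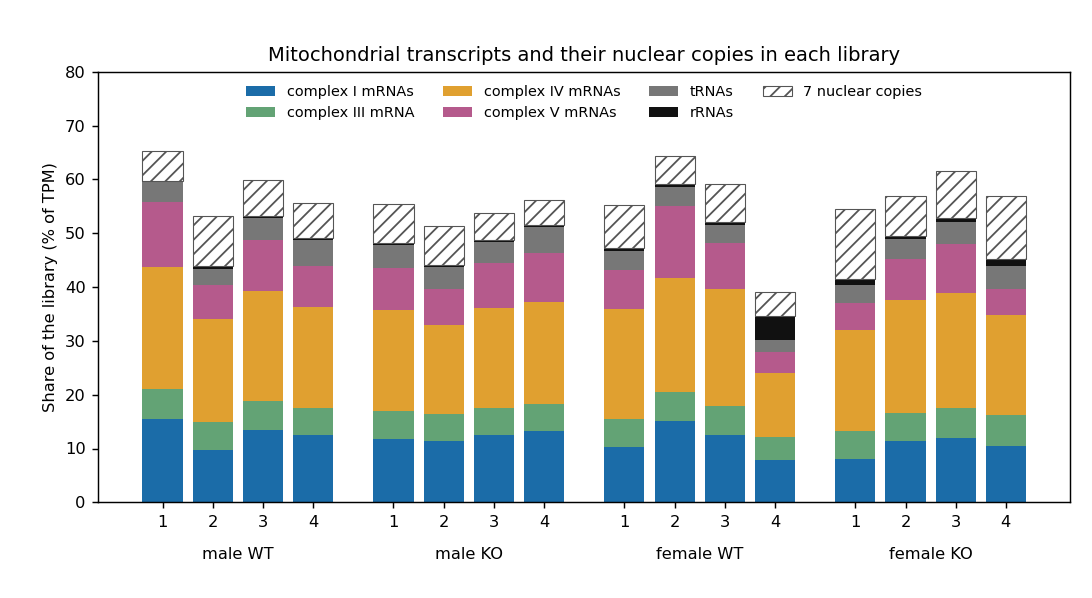
Share of each library's TPM (y axis, percent) taken by mitochondrial mRNAs of each complex, tRNAs, rRNAs and the 7 nuclear copies (hatched) in replicates 1 to 4 of each group. Complex IV mRNAs were the largest block in every library, the mitochondrial total without copies ran from 34.5% to 59.8%, and the black rRNA block reached 4.38% only in female WT replicate 4.

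The direction of the female difference depended on the nuclear copies, which held 6.93% ± 1.64 of TPM in male WT, 6.06% ± 1.42 in male KO, 6.19% ± 1.53 in female WT and 10.3% ± 2.5 in female KO libraries. Female KO libraries ranged from 7.53% to 12.99% and female WT from 4.63% to 7.90%, with 1 KO library below the highest WT library. With copies added, the share was 58.5% ± 5.3 in male WT, 54.2% ± 2.2 in male KO, 54.4% ± 10.8 in female WT and 57.5% ± 3.0 in female KO. KO minus WT then had the opposite sign in females, 3.08 points. Without female WT replicate 4 the female WT share with copies was 59.5% ± 4.6 (n = 3), above that of female KO again. Some marker sums did not overlap between genotypes. Over single genes tested, 9.54% in males and 4.9% in females were higher in KO without overlap. In males, the 8 macrophage markers took 0.0102% to 0.0156% of nuclear TPM in WT and 0.0198% to 0.0312% in KO, and the 6 fibroblast markers 0.0212% to 0.03% and 0.0378% to 0.0436%. In females, the 5 endothelial markers took 0.0255% to 0.0299% in WT and 0.0349% to 0.0535% in KO, while the macrophage and fibroblast sums overlapped. All of these markers were above 0 in every library. The 10 brown adipocyte markers took 3.53% to 4.01% in male WT, 3.31% to 3.56% in male KO, 2.32% to 3.56% in female WT and 2.96% to 3.81% in female KO. The value of 2.32% is that of female WT replicate 4. Nuclear TPM here covers every gene whose symbol does not start with mt-, so it includes the nuclear copies and Mir6236. KO and WT overlapped for these in both sexes, for white adipocyte and lymphocyte markers in both, and for endothelial markers in males. The 7 skeletal muscle markers overlapped too. They took 0.00319% to 0.293% in male WT and 0.0018% to 0.731% in male KO. In females they took 0.000387% to 0.273% in WT and 0.00119% to 0.713% in KO. In bulk tissue, fewer cells of a type and less RNA per cell cannot be told apart, and the part of these cells in the mitochondrial share was not tested.

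Among the mRNAs, levels were highest for 5 genes. Over the 16 libraries these were mt-Co1 (67090 ± 7489 TPM), mt-Co2 (66799 ± 9501), mt-Atp6 (64162 ± 16451), mt-Co3 (59023 ± 13072) and mt-Cytb (52239 ± 3717). The ranges of these 5 overlapped. They encode the 3 core subunits of cytochrome c oxidase, the proton channel subunit of ATP synthase and cytochrome b of complex III. mt-Nd4 (24997 ± 3213), mt-Nd1 (23334 ± 3981), mt-Nd4l (23091 ± 4976) and mt-Nd2 (18924 ± 4132), subunits of the membrane arm of complex I, came next, and their ranges overlapped as well. mt-Atp8 (15300 ± 9339), mt-Nd6 (11227 ± 3141), mt-Nd5 (8011 ± 2288) and mt-Nd3 (7727 ± 3156) were lowest, with ranges that in part reached into the middle group. mt-Cytb varied least between libraries, with a coefficient of variation of 0.0712 against 0.61 for mt-Atp8.

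**Figure D2:**
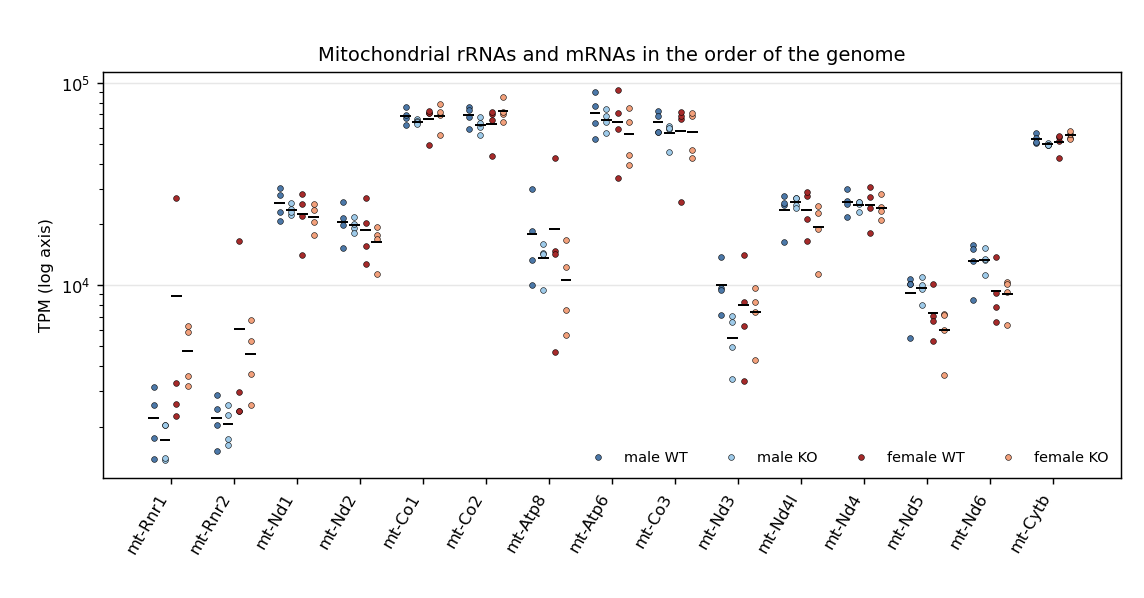
TPM (log axis) of the 2 rRNAs and 13 mRNAs in each library, in genome order, with 4 points a group and a bar at the group mean. mt-Co1, mt-Co2, mt-Atp6, mt-Co3 and mt-Cytb form the upper group, and the points far above the others for mt-Rnr1 (27150 TPM) and mt-Rnr2 (16604 TPM) are female WT replicate 4.

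Summed by complex, the 3 complex IV mRNAs held 43.9% ± 3.2 of mitochondrial mRNA TPM (n = 16), the 7 complex I mRNAs 26.5% ± 2.1, the 2 complex V mRNAs 17.6% ± 3.1 and mt-Cytb 12.0% ± 1.6. Adding the copies changed these to 49.4%, 23.4%, 17.03% and 10.2%. The order of complexes was the same on both scales. TPM is divided by length, so a read is worth more on Gm29216 (492 bases) than on mt-Co1 (1545 bases). All sums and shares with copies added therefore do not weigh reads equally. Of the 13 mRNAs, 12 overlapped between male KO and WT in their share of mitochondrial mRNA, and 13 overlapped between female KO and WT. Overlap was the usual outcome with 4 libraries a group: by TPM, 0.673% of all genes tested in males were lower in KO without overlap and 9.54% higher, and in females 3.19% and 4.9%. The mRNA without overlap was mt-Nd3 in males, at 1.63% to 2.47% in WT and 0.869% to 1.52% in KO libraries.

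2 pairs of genes are read from 1 RNA, because the second reading frame begins before the first ends. mt-Atp8 and mt-Atp6 overlap by 43 bases, and mt-Nd4l and mt-Nd4 by 7. Although each pair shares an RNA, their TPM values were not equal. The mt-Atp8 to mt-Atp6 ratio ranged from 0.129 to 0.461, and the mt-Nd4l to mt-Nd4 ratio from 0.537 to 1.07. mt-Atp8, at 204 bases, is the shortest of the 13 mRNAs, and its value varied most from library to library (4685 to 42473 TPM). mt-Nd6 is the single mRNA made from the light strand. Its ratio to mt-Cytb, the heavy-strand mRNA that follows it on the genome, had a geometric mean of 0.241 in male WT and 0.267 in male KO, a log2 difference of 0.15 (exact two-sided permutation test, p = 0.6). In females the geometric means were 0.178 and 0.161, a log2 difference of -0.14 (exact permutation p = 0.571). Groups of 4 allow no p below 0.0286 in this test. Whether the counting used strand was not stated, so reads from mt-Nd6 and from heavy-strand RNA across it cannot be told apart. The libraries were made from polyadenylated RNA, and how much of the mt-Nd6 RNA was kept was not measured. Over the 16 libraries the mt-Nd6 to mt-Cytb ratio ranged from 0.119 to 0.312. The ratio to mt-Nd5, its neighbour on the other side, ranged from 1.18 to 1.76.

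Among the copies, Gm29216 was the most abundant, at 34490 to 85978 TPM. It was 36.5% to 60.9% of its sum with mt-Co1, although it covers only the last 492 bases of that gene. Gm10925 ranged from 744 to 22862 TPM, and Gm28437 from 13.8 to 19865. Gm28438 made up between 2.77% and 63.4% of its sum with mt-Nd3. Gm28439 and Gm10222, which are also identical to mitochondrial sequence, were listed at 0 in every library. Summing each copy into its gene lowered the coefficient of variation across libraries from 0.408 to 0.247 for mt-Nd3, from 0.256 to 0.193 for mt-Atp6 and from 0.221 to 0.148 for mt-Co3. For mt-Co1 it rose from 0.112 to 0.126.

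mt-Rnr1 and mt-Rnr2, the 12S and 16S RNAs of the mitochondrial ribosome, held little of the TPM. The libraries were made from polyadenylated RNA and mitochondrial rRNAs carry only short tails, and how much of them the selection kept was not measured. In 15 libraries the rRNAs took 0.288% to 1.30% of TPM, and in female WT replicate 4 they took 4.38%, or 12.7% of its mitochondrial TPM. mt-Rnr1 was 1378, 3134, 1763 and 2558 TPM in male WT and 2037, 1367, 1403 and 2038 TPM in male KO. It was 3282, 2262, 2591 and 27150 TPM in female WT and 5870, 3163, 3554 and 6290 TPM in female KO. The genotype ranges overlapped in both sexes. Without the library that stood apart, female KO still overlapped WT at 1 library, and mt-Rnr1 was 0.75 higher in KO on the log2(TPM + 0.5) scale (SE 0.28, adjusted p = 0.328) and mt-Rnr2 0.73 higher (SE 0.32, adjusted p = 0.346). The mt-Rnr2 to mt-Rnr1 ratio was 1.09, 0.779, 1.15 and 1.11 in male WT and 1.11, 1.19, 1.24 and 1.26 in male KO, a log2 difference of 0.23 (exact two-sided permutation test, p = 0.0857). Without male WT replicate 2, the lowest of the WT libraries, the difference was 0.099. In females the geometric means were 0.855 in WT and 0.943 in KO (exact permutation p = 0.571). Female WT replicate 4 had the lowest ratio of any library, 0.612.

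tRNAs took 2.20% to 4.78% of TPM. Nearly all of it came from a few genes: mt-Tp, the tRNA for proline, held 76.3% of tRNA TPM over the libraries (64.1% to 91.1%), followed by mt-Tl1, for leucine (9.15%), mt-Tn, for asparagine (9.04%), and mt-Te, for glutamate (2.40%). These 4 and mt-Tq were the only tRNAs above 0 in every library, and 9 were above 0 in fewer than 8 libraries. The 4 most abundant are shown with their gene sequence from GENCODE M21, with the anticodon in capitals. mt-Tp (chrM:15356-15422), mt-Tn (chrM:5089-5159) and mt-Te (chrM:14071-14139) lie on the minus strand of GRCm38 and mt-Tl1 (chrM:2676-2750) on the plus strand.
mt-Tp: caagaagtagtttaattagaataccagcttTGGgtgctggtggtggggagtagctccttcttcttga
mt-Tl1: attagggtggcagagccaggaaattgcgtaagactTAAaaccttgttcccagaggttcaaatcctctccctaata
mt-Tn: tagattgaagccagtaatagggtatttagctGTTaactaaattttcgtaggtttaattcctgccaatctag
mt-Te: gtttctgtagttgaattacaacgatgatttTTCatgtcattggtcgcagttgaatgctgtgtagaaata

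The tRNA values came in steps. Leaving out mt-Ts2, all 213 values above 0 were whole multiples, within 0.02, of 1 smallest step per library, which ran from 27.7 to 82.3 TPM and was taken as the worth of 1 read. On that scale mt-Tp rested on 282 to 1029 reads, mt-Tn on 8 to 185, mt-Tl1 on 27 to 153 and mt-Te on 7 to 56. The medians of the other 18 tRNAs lay between 0 and 6 reads. mt-Tf, mt-Tt, mt-Tg, mt-Tr, mt-Th, mt-Td and mt-Tw never passed 3 reads, and mt-Tk and mt-Tv never passed 1. mt-Ts2 was listed once, at 0.663 TPM. tRNAs are shorter than most library fragments, and whether the counting used strand was not stated, so reads from a tRNA and from the precursor RNA across it cannot be told apart.

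**Figure D3:**
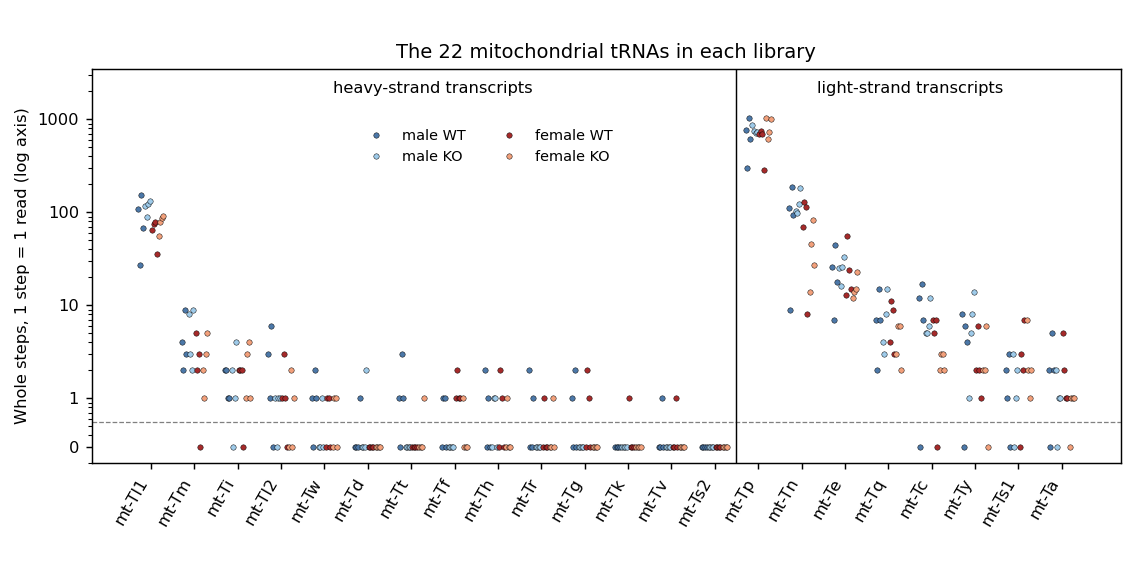
Whole steps (log axis, values of 0 drawn on the line marked 0) for each of the 22 tRNAs in the 16 libraries, heavy-strand transcripts at the left and light-strand transcripts at the right. mt-Tp stands at 282 to 1029 steps in all libraries, whereas 10 of the 14 heavy-strand tRNAs never passed 3.

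In males, no mitochondrial gene passed an adjusted p of 0.05 between KO and WT. Of 12177 genes tested with limma, 1 passed (0.00821%), and none of the 35 mitochondrial genes tested was among them. At an unadjusted p under 0.05, 2281 genes (18.7%) and 2 of the 35, mt-Nd3 and mt-Tt, were counted. The median log2 fold change of the 13 mRNAs was -0.09, with 10 below 0, while that of all genes tested was 0.16, with 20.1% below 0. Because TPM sum to a constant, these values were also taken after scaling by the median of ratios over the genes tested, which brought the median of all genes to 0.00 and that of the mRNAs to -0.27. Without that scaling, the 95% interval of the KO effect was -0.27 to 0.08 for mt-Cytb and -0.30 to 0.11 for mt-Co1. It was -0.41 to 0.09 for mt-Co2 and -0.48 to 0.12 for mt-Co3, and it reached from -1.04 to 0.42 for mt-Atp8.

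mt-Nd3, a small subunit at the junction of the 2 arms of complex I, was the mRNA without overlap in males. Its TPM was 13777, 9687, 9508 and 7145 in WT and 4965, 3440, 6564 and 7024 in KO, so that every KO library lay below every WT library. Among all genes tested, 82 (0.673%) were lower in KO with no overlap and 1162 (9.54%) were higher. The log2 difference of mt-Nd3, KO minus WT, was -0.88 (SE 0.26, unadjusted p = 0.00846, adjusted p = 0.198). The nuclear copy Gm28438 had the opposite order of means, at 392, 2019, 2809 and 2610 TPM in WT and 5089, 5241, 2279 and 3708 TPM in KO, with 1 KO library inside the WT range. The sum of both was 14169, 11707, 12316 and 9755 in WT and 10053, 8681, 8843 and 10732 in KO, and the groups overlapped. On the sum the log2 difference was -0.32 (SE 0.13, adjusted p = 0.242). Gm28438 held 17.4% ± 10.5 of the sum in male WT and 42.8% ± 15.6 in male KO libraries. Reads from the shared bases could be assigned to either gene, and the part of that division in the difference of mt-Nd3 was not tested.

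**Figure D4:**
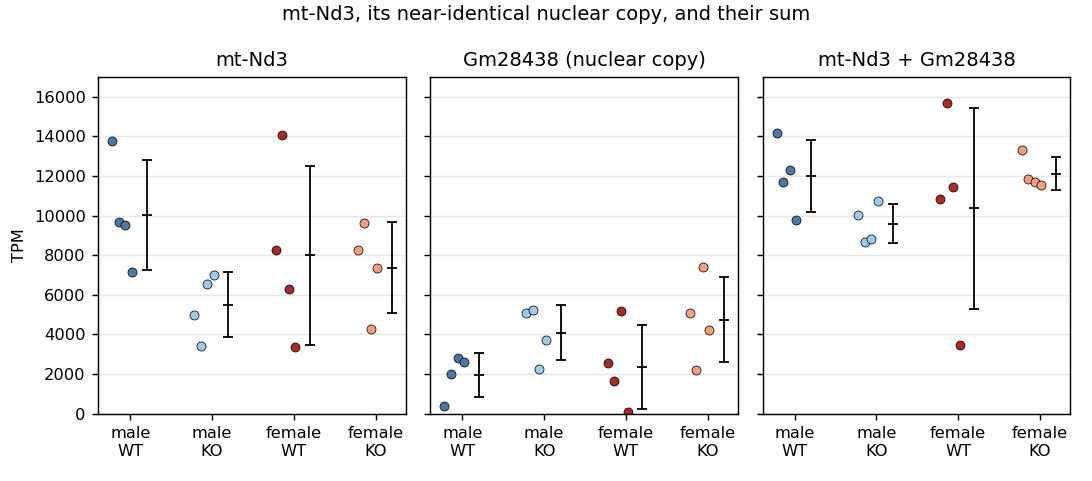
TPM of mt-Nd3 (left), its nuclear copy Gm28438 (middle) and their sum (right) in each library, with the mean and SD of each group. Male KO points (3440 to 7024) lie below all male WT points for mt-Nd3 and overlap them for the sum (8681 to 10732 against 9755 to 14169).

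In females, again no mitochondrial gene passed. With limma, 0 of 12141 genes tested (0%) met the adjusted threshold of 0.05. Without adjustment 2077 (17.1%) were below it, among them mt-Tf and mt-Tp of 35 mitochondrial genes tested. The median of the 13 mRNAs was -0.02, with 8 below 0, against 0.10 for all genes, and -0.12 after median-of-ratios scaling. Without that scaling, mt-Cytb was 0.13 higher in KO (95% interval -0.17 to 0.43), mt-Co1 0.06 higher (-0.34 to 0.46) and mt-Atp6 had a value of -0.16 (-0.89 to 0.58). Intervals for the rRNAs spanned more than 2 log2 units with female WT replicate 4 included. Without it, 11 of the 13 mRNAs were below 0 with a median of -0.31, against 0.07 for all genes tested. mt-Atp8 was then lowest at -1.10 (SE 0.49), and still none of 13 passed: the smallest adjusted p of any mitochondrial gene was 0.328. Of 12089 genes then tested, 3 passed and 14.4% had an unadjusted p under 0.05, 4 mitochondrial genes among them (mt-Tf, mt-Rnr1, mt-Tc and mt-Tg).

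**Figure D5:**
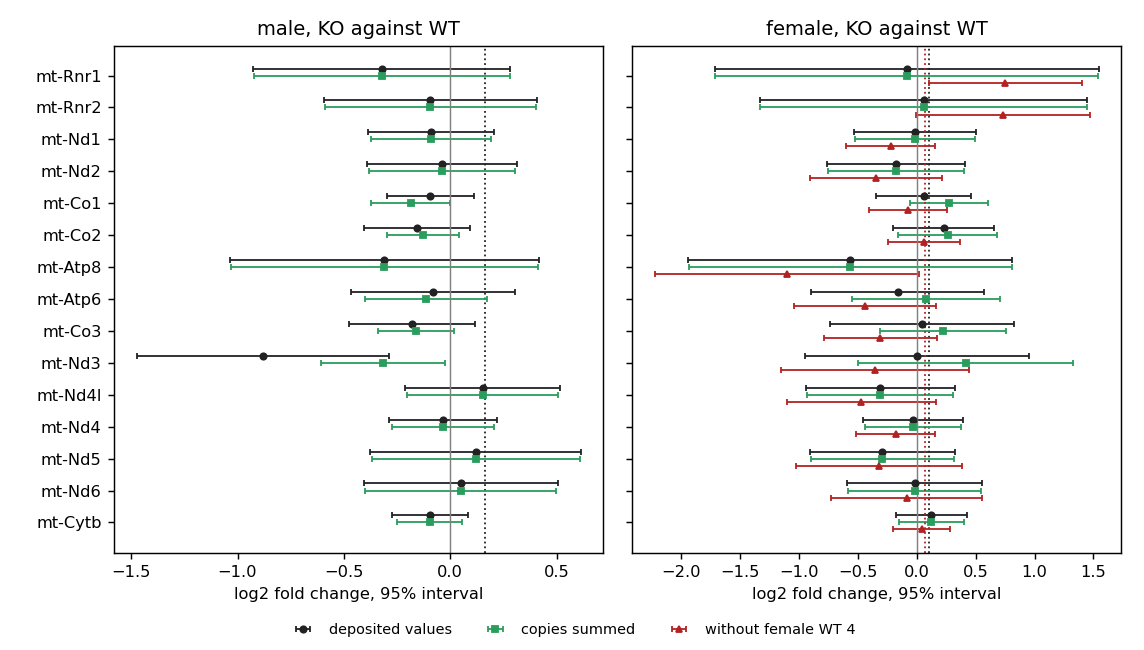
KO against WT log2 fold change with its 95% interval for the rRNAs and mRNAs in males (left) and females (right), from deposited values (black), with copies summed (green) and without female WT replicate 4 (red), the dotted lines marking the median of all genes tested. The male mt-Nd3 estimate moves from -0.88 to -0.32 when its copy is summed, and the female rRNA estimates move from about 0 to 0.75 and 0.73 without the library that stood apart.

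mt-Tp was the abundant transcript with the clearest separation in females. It was 27426, 25077, 25391 and 17546 TPM in WT and 29584, 29532, 31247 and 37759 TPM in KO, so the groups did not overlap with or without replicate 4. In this comparison 595 genes (4.9%) were higher and 387 (3.19%) lower without overlap. The log2 difference for mt-Tp was 0.44 (SE 0.18, adjusted p = 0.268), or 0.30 (SE 0.13, adjusted p = 0.346) without replicate 4. In males mt-Tp ranged from 24698 to 35630 TPM in WT and from 27481 to 32735 in KO. mt-Tf was also without overlap in females, but it rested on 1 or 2 reads in each WT library and 0 or 1 in each KO library. Its adjusted p was 0.231, and fell to 1.62e-05 without female KO replicate 1, the KO library with a read. mt-Tt in males was alike, with 0 to 3 reads in WT libraries and 0 in KO libraries, an adjusted p of 0.183, and 6.6e-05 without male WT replicate 2, the WT library at 0.

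The sex difference of the KO effect was tested as an interaction. Of 12210 genes, 0 passed (0%), 1737 (14.2%) had an unadjusted p under 0.05, and of 36 mitochondrial genes tested mt-Tt was the 1 so counted. With female WT replicate 4 left out, 1 of 12174 genes passed and 15.2% had an unadjusted p under 0.05. The mitochondrial genes then counted were mt-Rnr1, mt-Tn and mt-Tt, and none passed (smallest adjusted p 0.212, limma). The mRNAs then had a median interaction of -0.13, with 9 below 0, against -0.09 for all genes tested. With all libraries, mt-Nd3 had the largest interaction among mRNAs at 0.89 (female minus male effect, SE 0.53, adjusted p = 0.467). mt-Co2 was then 0.39 (SE 0.22, adjusted p = 0.432). This ranking depended on female WT replicate 4, since leaving it out gave 0.53 for mt-Nd3 and -0.79 for mt-Atp8. Female WT was also set against male WT. Of 12042 genes, 8 passed (0.0664%) and 413 (3.43%) had an unadjusted p under 0.05, with mt-Tt the 1 of 36 mitochondrial genes so counted and none passing. No overlap was seen for 144 genes lower in females (1.2%) and 87 higher (0.722%), none of them mitochondrial. The median of the mRNAs was -0.20 in female WT against male WT, with 13 of 13 below 0, and became 0.01 with 4 below 0 without female WT replicate 4. The direction of this sex difference therefore rested on that 1 library.

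Nuclear genes that replicate, transcribe and process mitochondrial DNA and its RNA were taken as 4 lists, and none of the 47 genes tested passed in either sex. Their log2 difference was above 0 for 33 in males and 32 in females, with medians of 0.08 and 0.09, while 79.9% and 62.7% of all genes tested were above 0. With median-of-ratios scaling, 13 and 22 were above 0. Without female WT replicate 4, the females had 24 above 0 and 23 below, with a median of 0.02. At an unadjusted p under 0.05 there were 3 of the 47 genes in each sex, while the shares over all genes tested were 18.7% for males and 17.1% for females. Polrmt, the mitochondrial RNA polymerase, was 0.02 (SE 0.14) in males and 0.41 (SE 0.23) in females. Tfam, which packs mitochondrial DNA and starts transcription, was -0.02 (SE 0.12) and 0.00 (SE 0.16). Mterf3 was 0.09 and 0.35, Mterf4, which acts in mitochondrial ribosome assembly, -0.12 and 0.19, and Tfb2m, which opens the promoter, 0.14 and -0.23. Of the replication genes, Twnk, the helicase, was 0.24 and 0.34, Rnaseh1 0.12 and 0.19, Mgme1 0.19 and 0.09, and Primpol 0.12 and -0.31.

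Genes that process and stabilize mitochondrial RNA followed. The female values of all single genes named from these lists, above and below, include female WT replicate 4. Elac2, which cuts the 3′ ends of tRNAs from the precursor, was 0.28 in males (SE 0.11, adjusted p = 0.232) and 0.06 in females. Hsd17b10, a subunit of mitochondrial RNase P, was -0.22 and 0.61, Mrm3 -0.05 and 0.40, and Trnt1, which adds the CCA end to tRNAs, 0.20 and -0.09. Lrpprc and Slirp form a complex that keeps mitochondrial mRNAs stable and adenylated. Lrpprc averaged 31.9 TPM and was 0.15 in males (SE 0.13) and -0.46 in females (SE 0.18, adjusted p = 0.261), whereas Slirp, at 64.7 TPM, was -0.04 (SE 0.15) and 0.34 (SE 0.20). Fastkd2 was -0.08 and 0.56 (SE 0.18, adjusted p = 0.231), Fastkd5 0.18 and 0.44, and Rexo2, which degrades short RNA fragments, 0.37 and 0.17. Regulators of nuclear genes for mitochondria were also tested, and 0 of 7 passed. Gabpa, the DNA-binding subunit of a transcription factor for such genes, was 0.03 and -0.56 (SE 0.14, adjusted p = 0.231), its partner Gabpb1 0.24 and 0.43, Nrf1 0.30 and 0.35, and the coactivator Ppargc1a -0.31 and 0.19.

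The nuclear partners of the mitochondrial mRNAs were described by complex. None of 74 nuclear subunit genes passed in either sex. In males 29 were above 0 with a median of -0.02, against a median of 0.16 over all genes. In females 63 were above 0 with a median of 0.30, against 0.10 over all genes, and without female WT replicate 4 the count was 58 and the median 0.15. With median-of-ratios scaling, 7 were above 0 in males and 61 in females, with medians of -0.19 and 0.20. The female medians were 0.28 for complex I (36 genes), 0.13 for complex III (9), 0.33 for complex IV (14) and 0.29 for complex V (15). These medians and the single-gene values that follow include female WT replicate 4. Ndufa2 was 0.54 in females, Ndufa1 0.51, Uqcr11 0.55, Uqcr10 0.47, Cox8b 0.55, Cox6c 0.43, Cox5b 0.40, Cox6b1 0.38, Atp5e 0.47, Atp5g2 0.44 and Atp5j 0.34. The adjusted p of these genes in females lay between 0.305 and 0.404 (limma). Ndufs1 (-0.33), Ndufa10 (-0.24), Uqcrc2 (-0.40), Uqcrc1 (-0.03) and Atp5a1 (-0.17) were below 0 in females and above 0 in males, and no interaction passed. Summed per library, the 13 mitochondrial mRNAs held 8.60 ± 2.58 times the TPM of the 74 nuclear subunit genes in male WT, 7.81 ± 1.0 in male KO, 8.88 ± 2.42 in female WT and 7.29 ± 1.87 in female KO. These ratios overlapped between genotypes, and the ratio was highest for complex IV in every group, at 10.1 to 11.8.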

How the data were processed

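BAT of 16 mice was profiled by bulk RNA sequencing, with libraries from a stranded mRNA kit. The authors quantified single-end reads with kallisto 0.46.2 (GRCm39, per the labels) and deposited TPM values per transcript. The annotation release and the strand setting were not given in the sources used here. Read totals are not known from TPM, so precision is given by the spread between mice, and p-values measure only that spread. The authors tested expression with DESeq2, which needs counts and was not run.

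Of 137438 transcripts, 135051 matched GENCODE M21 identifiers, 37 of them with their version, and these 37 were the mitochondrial ones. TPM were summed per symbol. Genes with a mean of at least 1 TPM in the compared libraries were tested on log2(TPM + 0.5) with limma 3.58.1 (R 4.3.3, eBayes with trend, Benjamini-Hochberg adjustment). Fold changes on this scale understate changes of genes with TPM near 0.5. At the tRNAs 1 read was worth 27.7 to 82.3 TPM, so a few reads gave large fold changes. Examples are -5.11 for mt-Tt in males and -5.17 for mt-Tf in females, neither of which passed 3 reads. Ratios of 2 genes were tested with exact two-sided permutation tests of log2 ratios. No p was computed for the summed share. Nuclear copies were found by shared 31-base words in the M21 transcripts. Python 3.11.15, numpy 2.4.6, pandas 2.3.3, scipy 1.17.1, Biopython 1.88 and matplotlib 3.10.9 were used. The fits were tested on simulated data.

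The members, gene lists and alternatives were chosen with earlier results of these data known. Named were all mt- genes, the nuclear copies, and the 4 genes of each list with the smallest p in a genotype comparison with Polrmt, Tfam, Lrpprc and Slirp. Alternatives were another pseudocount, TPM minimum, scaling or trend setting, all libraries in 1 fit, the replicate block, the library-name prefix, copies summed (added after seeing the data) and leaving out each library.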

Additional observations from a re-analysis of the deposited data

Results flagged for a closer look

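In groups of 4 libraries, a library was set aside for a closer look when its gap to the nearest other library, as a part of the range of the group, exceeded Dixon's 95% critical value. Of 144 groups over 36 measures, 15 (10.4%) met this limit, and chance alone gives about 1 in 20.

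Female WT replicate 4 accounted for most of them. Its rRNA share was 4.38% of TPM (0.464% to 0.626% in the other female WT libraries), its tRNA share 2.20% (3.44% to 3.51%), its share of transcripts that could not be named 17.7% (0.347% to 0.45%) and its Mir6236 share 7.09% (0.03% to 0.0583%). mt-Rnr1 was 27150 TPM (2262 to 3282) and mt-Rnr2 16604 TPM (2374 to 2976) there. mt-Co1 was 49572 TPM (70870 to 73150), mt-Co3 25846 TPM (66664 to 71759), and mt-Co3 summed with its copy 33354 TPM (67267 to 71945).

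The other 6 came from 4 libraries. In female KO replicate 1, mt-Tl1 was 1621 TPM (3446 to 3763) and mt-Nd3 summed with its copy 13337 TPM (11567 to 11863). In male KO replicate 2, mt-Co3 was 45856 TPM (59442 to 61185). In male WT replicate 2, mt-Nd5 was 5498 TPM (10122 to 10748) and the mt-Rnr2 to mt-Rnr1 ratio 0.779 (1.09 to 1.15). In female WT replicate 3, the mt-Nd4l to mt-Nd4 ratio was 1.06 (0.882 to 0.906).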

How the results depend on the processing

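No mitochondrial gene passed between KO and WT in 18 of 19 alternatives in males, 18 of 19 in females and 26 of 26 for the interaction, nor between the sexes in WT in 16 of 17. The exceptions (1 gene each) were mt-Tt without male WT replicate 2, in males and between the sexes, and mt-Tf without female KO replicate 1, which rest on 0 to 3 reads a library, so leaving out 1 library gave 0 to 1 genes. Over all genes, the number passing ranged from 0 to 38 in males, 0 to 9 in females, 0 to 3 for the interaction and 3 to 11 between the sexes. The adjusted p of mt-Nd3 in males ranged from 0.115 to 0.609.

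The difference in mitochondrial share (KO minus WT) in females changed sign with annotated copies or all copies added (3.08 points) and within prefix 8b (4.28). Leaving out 1 library gave -5.56 to 2.62 points in females (above 0 without WT replicate 2, WT replicate 3 or KO replicate 1) and -5.94 to -0.636 in males. It gave -2.17 to 6.01 for the difference between the sexes in the KO effect (2.39 with all libraries, below 0 without male WT replicate 1 or female WT replicate 4). It gave -6.90 to 1.28 for female WT minus male WT (-3.29 with all libraries, above 0 without female WT replicate 4). On the log2 scale it gave 0.099 (without WT replicate 2) to 0.29 for the mt-Rnr2 to mt-Rnr1 ratio in males and -0.019 to 0.24 in females (below 0 without WT replicate 4). For the mt-Nd6 to mt-Cytb ratio it gave -0.034 to 0.23 in males (below 0 without WT replicate 2) and -0.30 to 0.030 in females (above 0 without WT replicate 2 or KO replicate 1). The median of the mRNAs in females was 0.017 with the prefix as a covariate and -0.31 to 0.10 with 1 library left out, above 0 without WT replicate 2 or KO replicate 1. Between the sexes in WT it was -0.35 to 0.012 with 1 library left out, above 0 without female WT replicate 4. Beyond fewer libraries, the cause was not tested.

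Groups share replicate numbers, but same-numbered libraries deviated together with correlations of -0.0812 to 0.349 in males and -0.117 to 0.151 in females, so the numbers were not taken to pair mice. With the replicate number as a block, 0 mitochondrial genes passed, with a smallest adjusted p of 0.153 in males, 0.164 in females and 0.214 for the interaction. Genes passing were 0 in males, against 1 without the block, and 1 in females, against 0. The mean difference in share was the same (-3.39 and -0.994 points).

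Read totals are not known from TPM, so how far depth limits a value was not measured, other than by the steps of the tRNAs.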
